A study of Mus musculus with 2 samples.

Results

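Brown adipose tissue of a mouse lacking cGMP-dependent protein kinase I (PKGI KO) was set against that of a wild type (WT) littermate on 1 two-colour Agilent array. Both mice were of the C57BL/6N background and untreated. The KO tissue was labelled with Cy5 and the WT tissue with Cy3. The array carried 43379 gene spots, of which the 1215 with an outlier flag were left out, so 42164 of the 86758 gene spots of the series' 2 arrays were used. Spots were summarised by the gene name printed in the file, which gave 27534 names, and 20564 of them were kept because a probe was well above background in at least 1 channel. The age and sex of the mice, and the deleted stretch of Prkg1, are not given in the sources used here. Each genotype was 1 RNA sample and the dyes were not swapped, so no test was possible, no value has an error between animals, and any dye bias of a probe enters its ratio in full. The other biological replicates of the study were followed by quantitative PCR, which is not used here.

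Brown fat burns lipid to make heat. Ucp1, in the inner mitochondrial membrane, lets protons return without making ATP, and noradrenaline acting through cAMP switches this on. PKGI is the kinase through which cGMP, made in response to nitric oxide and natriuretic peptides, acts in many cells. Brown fat depots lie against skeletal muscle, so muscle transcripts can enter a dissected sample.

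A level below is the log2 normalised signal of a channel, and a ratio is the log2 of KO over WT, so that 1 stands for 2-fold. Levels of different genes are not comparable, because each probe binds with its own strength. Probes spotted more than once, 245 in number, differed between spots with a pooled SD of 0.11 in the log2 ratio. For 6559 genes with several kept probes the median SD between probes was 0.15, and of the 108 among them past 2-fold 2 had probes of both signs. A gene read by a single probe has no such error.

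Promoter sequence is shown for genes of the lists described below that stood on the lower side in KO tissue. The windows come from RefSeq's promoter table of GRCm38.p6 and are written 5′ to 3′ on the gene's own strand. Capitals mark pairs of interferon response half-sites (GAAANNGAAA or its reverse complement) in the first 3 genes, and the CArG box, the serum response factor motif, in the muscle actin gene Acta1.
Isg15 (chr4:156200845-156200926, minus strand): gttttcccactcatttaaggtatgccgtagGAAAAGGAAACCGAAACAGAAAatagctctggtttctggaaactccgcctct
Ifit1 (chr19:34640755-34640843, plus strand): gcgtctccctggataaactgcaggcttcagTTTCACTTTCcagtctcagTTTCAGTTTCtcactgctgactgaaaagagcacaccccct
Bst2 (chr8:71537557-71537632, minus strand): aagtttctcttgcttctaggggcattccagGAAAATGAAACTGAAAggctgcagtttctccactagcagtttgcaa
Acta1 (chr8:123894809-123894878, minus strand): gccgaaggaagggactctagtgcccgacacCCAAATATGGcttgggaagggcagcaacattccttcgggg
The half-site pair, searched on both strands in the 250 bases before the start, was present in 9 of the 15 interferon-stimulated genes that matched the table, of 20 kept on the array, and in 821 of 27025 genes of the table (3.04%). The E-box CANNTG, the motif of the myogenic factors, was present in 49 of the 55 matched genes, of 74 muscle genes past 2-fold to the lower side, or 89.1%, and in 66.0% of all genes. The CArG box was present in 4 of those 55 (7.27%) and in 1.4% of all genes. These are matches of letters and not measured binding.

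The targeted gene was read by 4 Prkg1 probes. On 2 of them both channels were above background, with KO levels of 6.73 and 6.46 against WT levels of 8.02 and 7.69 (ratios -1.29 and -1.22). The third was above background in KO but not in WT (6.25 against 6.24), and the last in neither. Over the 3 probes kept the ratio of the gene was -0.84, short of 2-fold, and -0.07 with outlier spots in the background fit. Prkg1 passed 2-fold in 5 of 10 alternatives of the processing. Whether any probe lies in the deleted stretch is not known.

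All 10 brown adipocyte markers listed for the check of the tissue label were above background in both channels, among them Ucp1, Cidea, Pparg, Adipoq and Fabp4. So were the muscle markers Acta1, Mylpf and Tnnc2, in KO as in WT. Sex-linked transcripts also differed. Xist was higher in KO on both probes above background in both channels (ratios 7.72 and 3.89), the remaining probe being not above background in WT. Of 5 Y-linked genes kept 4 were lower (1 of 5 with outlier spots in the background fit). The Y-linked Eif2s3y had 12.07 in WT and was not above background in KO. With 1 sample per genotype, effects of genotype and of a difference in sex cannot be told apart in any ratio of this array. Over the 20564 genes kept, 199 (0.968%) passed 2-fold to the higher side in KO and 508 (2.47%) to the lower, and the median ratio was 0.02. With Feature Extraction's own log ratios the counts were 2357 higher and 1374 lower, and without loess 943 and 605. Leaving out loess moved the median over all genes to 0.22, and list medians without loess are to be read against that. Among the 40 protein-coding neighbours of Prkg1, 20 on either side, 27 were kept, with a median ratio of 0.04. None was at least 2-fold higher and 2 were lower, Insl6 (-1.72) and Pdcd1lg2 (-1.14).

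**Figure D1:**
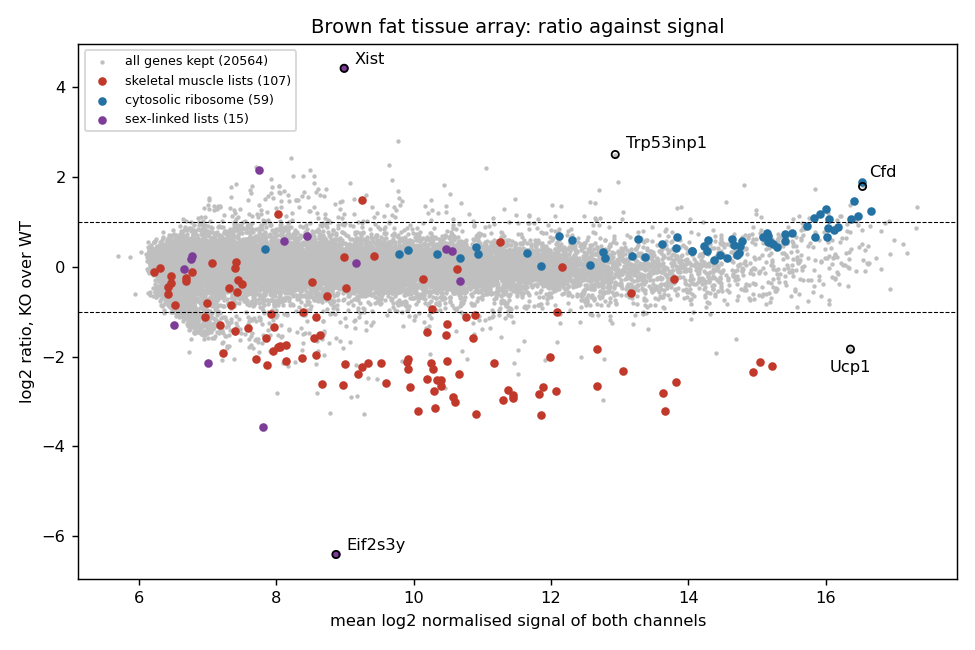
Log2 ratio of KO over WT against the mean log2 signal of both channels for the 20564 genes kept, with dashed lines at 2-fold. The 107 skeletal muscle genes (red) reach down to -3.31, with the Y-linked Eif2s3y below them at -6.40, and the 59 ribosomal protein genes (blue) lie above 0, further up at high signal.

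Most skeletal muscle transcripts were lower in KO. Among 107 genes kept from 7 skeletal muscle lists, 74 passed 2-fold downwards in KO and 2 upwards, with a median of -1.79 against 0.02 for all genes. With outlier spots in the background fit 40 passed, and the median was -0.63. They were 74 of the 508 lower genes, and of the 30 lowest genes measured in both channels 23 were in a muscle or heart list. Fewer muscle fibres in the sample and less RNA per fibre cannot be told apart here. In KO 104 of the 107 genes were above background and 3 were not, against 311 not above it of all 20564 genes kept. Signal in either channel was enough to keep a gene, so this count is no measure of muscle in the KO sample.

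The lower ratios covered both fibre types. In the slow fibre list 12 of 12 genes passed 2-fold downwards (median -2.51). Tnnt1, the slow troponin T, had a level of 10.20 in KO and 13.51 in WT (ratio -3.31). The slow myosin heavy chain Myh7 had 12.05 in KO and 15.26 in WT (-3.21). In the fast fibre list 12 of 13 were lower (median -2.39). The counts were 7 and 9 with outlier spots in the background fit. Of the fast fibre genes, the fast myosin Myh2 had 8.45 and 11.67 (-3.22) and the fast regulatory light chain Mylpf had 12.22 and 15.03 (-2.81). Probes of myosin heavy chains can read near-identical family members, so the values of single Myh genes are uncertain.

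The machinery around the fibres was lower too, unevenly, and with fewer genes past 2-fold when outlier spots stayed in the fit. Of 32 sarcomere genes common to all fibres 25 were lower (median -1.85, 12 lower with outlier spots), with the Z-disc crosslinker Actn2 at 9.28 in KO and 12.55 in WT, and Acta1 at 13.78 and 16.11. Muscle energy genes were lower in 12 of 16 (median -1.59, 7 lower with outlier spots). They included the creatine kinases Ckm (-2.93) and Ckmt2 (-3.01) and the cytochrome oxidase subunit Cox6a2 (-2.86). Of the 16 genes 11, Cox6a2 among them, were also kept on the series' array of cultured brown adipocytes. What brown adipocytes added to these ratios was not tested. In the excitation-contraction list 8 of 16 were lower (4 with outlier spots), led by the calcium channel Cacna1s (-2.59) and the calcium pump regulator Sln (-2.57). The same list held the 2 muscle genes that were higher, the potassium channel Kcna7 (9.99 in KO, 8.52 in WT) and the chloride channel Clcn1 (8.61 and 7.44). Neither passed 2-fold with outlier spots in the fit, where Kcna7 had 0.52 and Clcn1 0.17. At the neuromuscular junction 2 of 7 were lower, the acetylcholine receptor subunits Chrna1 (-1.37) and Chrng (-1.13). Their probes disagreed in size, with Chrna1 at -2.12 and -0.62 and Chrng at -1.75 and -0.51, and with outlier spots in the fit neither passed (-0.28 and -0.10).

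Regulators of the muscle lineage were divided. Myog, the differentiation factor, had 7.59 in KO and 9.55 in WT, and Myf6 had 6.77 and 8.95. Myod1 stood at 7.10 and 7.01, and Pax7, the satellite cell factor, was not above background in WT. The median over the 11 genes of the list was -0.06, with 3 lower (1 with outlier spots in the background fit, where Myog had -0.45 and Myf6 -0.32). That 1 was the muscle caveolin Cav3 (-2.49, and -1.47 in that fit).

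Heart muscle genes did not move as 1 group. Myh6 (-2.89), Tnnt2 (-2.47), Myl4 (-2.38) and Actc1 (-1.57) were lower, with 3 of these 4 past 2-fold when outlier spots stayed in the fit, whereas Tnni3, the troponin I of adult heart, was near 0 (6.73 in KO and 6.78 in WT), and Nkx2-5, Nppb, Myl7 and Gata4 were not above background in WT. Among the lowest genes that no muscle list held, several are also known from muscle. They include Atp1b4 (7.64 in KO, 10.92 in WT), the embryonic myosin Myh3 (11.27 and 14.25), Myo18b (7.64 and 10.53) and Fndc5, the precursor of irisin (9.11 and 11.81).

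**Figure D2:**
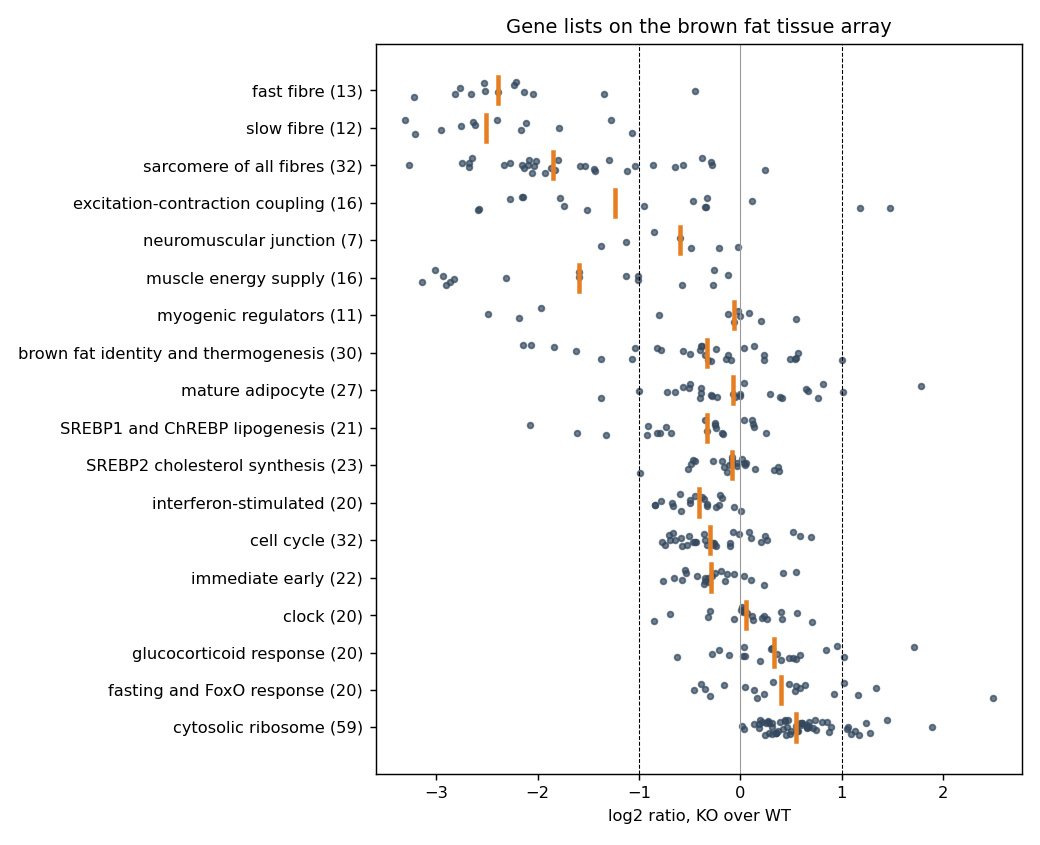
Log2 ratios of KO over WT for the members of 18 gene lists (points), with the list median as an orange bar and dashed lines at 2-fold. The fibre lists have medians near -2.4 to -2.5 and the cytosolic ribosome list, at the bottom, has 59 points above 0.

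On the array of cultured brown adipocytes of the same genotypes, which were differentiated from precursors, 100 genes of the muscle lists were kept, 7 higher and 2 lower, with a median of 0.03. Of all genes on that array 2.15% were higher and 3.81% lower. That array had the dyes the other way round and other RNA, so the values stand side by side. What carried-over muscle contributed to the ratios of genes made in both tissues was not tested.

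**Figure D3:**
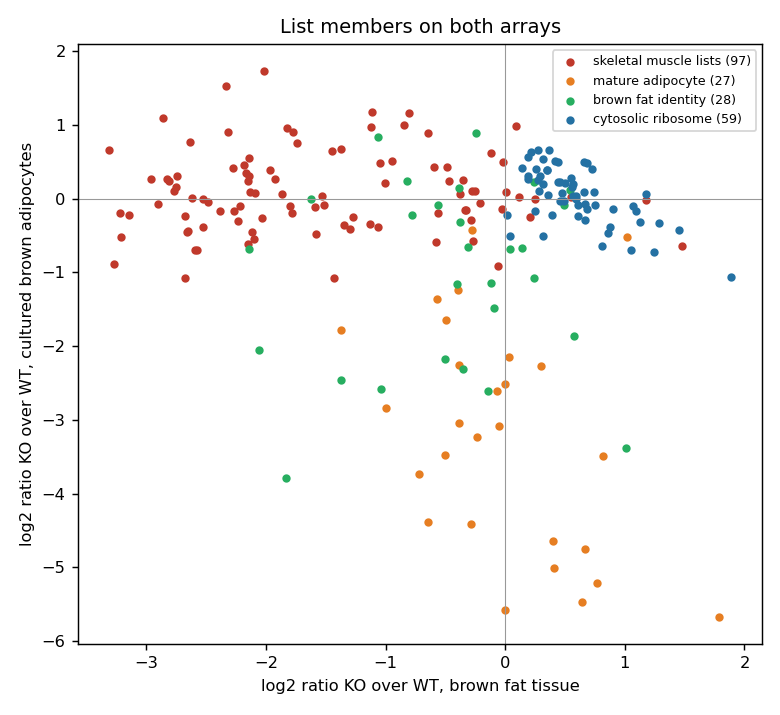
Log2 ratio of KO over WT in brown fat tissue (x) against cultured brown adipocytes (y) for list members kept on both arrays. The 97 muscle genes spread to the left in tissue and lie around 0 in culture, and the 27 mature adipocyte genes spread downwards in culture and lie around 0 in tissue.

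Several genes of heat production were lower in KO, Ucp1 among them. The 30 brown fat identity and thermogenesis genes kept had 7 past 2-fold downwards and 1 upwards (median -0.33, and 0.34 without loess). With outlier spots in the background fit 3 passed downwards and 0 upwards. Ucp1 had 15.44 in KO and 17.28 in WT, a ratio of -1.84 that stayed past 2-fold in 9 of 10 alternatives and fell just short of it without loess. The very long chain elongase Elovl3 had 7.03 and 9.17 (-2.14, but -0.36 with outlier spots in the background fit), Clstn3 had 11.74 and 13.80, the proton channel Otop1 had a ratio of -1.38 (-0.70 in that fit), and the deiodinase Dio2, which makes active thyroid hormone, had 7.62 and 8.68 (-1.07, and -0.17 in that fit). The lipid droplet gene Plin5 had 13.80 and 14.84. The transcription factors that mark the lineage were not among the lower genes: Ebf2 had 12.61 in KO and 12.04 in WT, Zic1 10.81 and 10.27, Lhx8 9.82 and 9.33, and Prdm16 10.88 and 11.00. Cidea, a lipid droplet protein abundant in brown fat, was higher (17.42 and 16.41, ratio 1.01, from 0.71 to 1.88 over the alternatives). Muscle transcripts were lower on the same array (74 of 107), and their part in these ratios was not tested.

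Genes shared by all mature fat cells were near 0 as a list (27 kept, median -0.07, and 0.52 without loess), with 2 higher and 1 lower, or 1 and 0 with outlier spots in the fit. Cfd, the complement protease adipsin, had 17.43 in KO and 15.64 in WT (1.78). The acyltransferase Agpat2 had 10.42 and 11.79 (-1.38, and -0.96 with outlier spots in the fit). Pparg had 14.76 and 13.95 and Adipoq 16.23 and 15.46. Of 24 adipokine and secreted factor genes 4 were lower: the acute phase proteins Orm1 (-1.45) and Orm2 (-1.36), whose near-identical sequences a probe may not separate, Hp, which is haptoglobin (-1.25), and Apln, the precursor of apelin (-1.19). With outlier spots in the fit only Hp of these 4 passed 2-fold (-1.07), Orm1 and Orm2 being at -0.26 and Apln at -0.17.

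**Figure D4:**
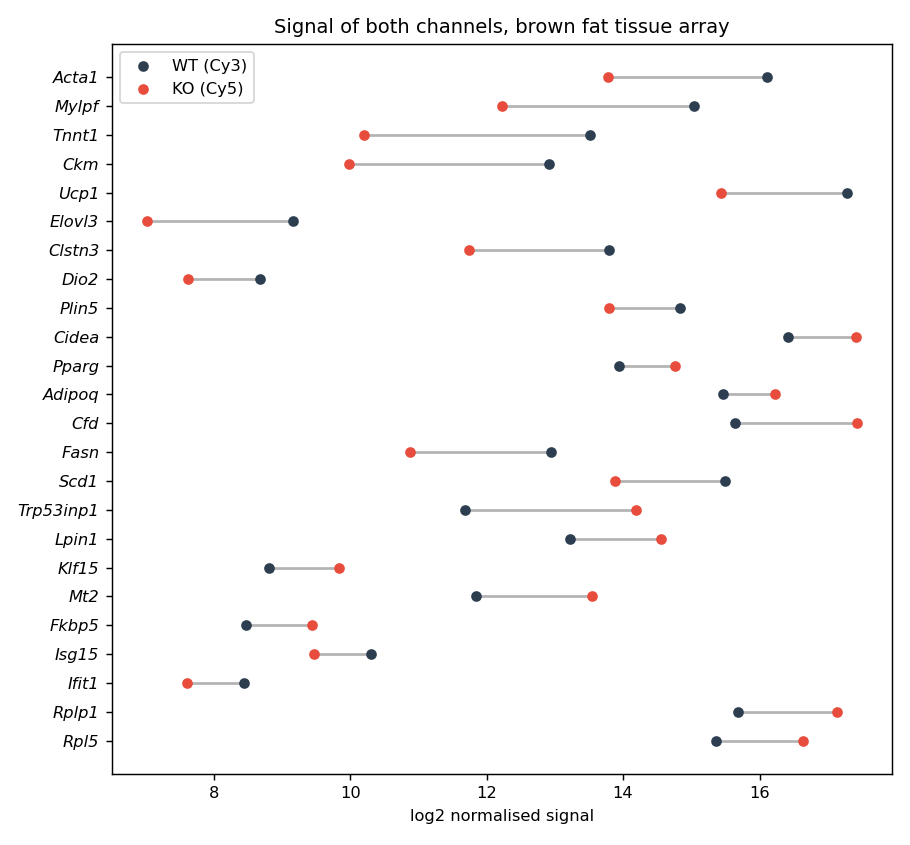
Log2 normalised signal in KO (red) and WT (dark) for 24 genes named in the text, joined by a line. Muscle and thermogenic genes have the WT point to the right, and Cidea, Cfd, Trp53inp1 and the ribosomal protein genes the KO point.

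Lipogenic enzymes were among the lower genes. The 21 SREBP1 and ChREBP targets kept had 3 past 2-fold, all downwards (median -0.33, and 0.07 without loess). They were fatty acid synthase Fasn (10.87 in KO, 12.95 in WT), the desaturase Scd1 (13.89 and 15.50) and malic enzyme Me1 (9.55 and 10.88), which in the file is Mod1 and was at -0.68 with outlier spots in the background fit. Srebf1 had 13.19 and 14.11. The 23 cholesterol synthesis genes under SREBP2 had no member past 2-fold and a median of -0.08, which was 0.21 without loess, the largest being Hmgcs1 (-0.99). Of single lipid genes outside these lists, G0s2, the inhibitor of adipose triglyceride lipase, had 10.39 and 12.54, and the acetyltransferase Nat8l, which makes N-acetylaspartate, had 11.43 and 13.43. Tfrc, the transferrin receptor that brings iron into cells, had 9.26 and 11.21.

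Genes that rise with fasting and FoxO activity were on the higher side. Of 20 kept, 4 passed 2-fold upwards and none downwards, and 15 were above 0 (median 0.40, from 0.32 to 0.93 over the alternatives). Over all 20564 genes kept 10819 were above 0, and 13561 without loess, and 199 were at least 2-fold higher. Trp53inp1, an autophagy and stress protein, had 14.18 in KO and 11.69 in WT with probes at 2.33 and 2.66. Lpin1, the phosphatidate phosphatase, had 14.56 and 13.22, Bnip3, a mitophagy receptor, 15.57 and 14.40, and Klf15 9.83 and 8.81 (ratio 1.02, but 0.57 with outlier spots in the background fit). Pdk4, a fasting-induced kinase, differed little (15.91 and 15.77). Depp1, a FoxO target outside the list, had 15.72 and 13.90.

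The glucocorticoid response list had a median of 0.34 (0.24 to 0.85), with 2 of 20 at least 2-fold higher, Klf15, which is in both lists, and the metallothionein Mt2 (13.55 in KO, 11.84 in WT). Fkbp5 had 9.43 and 8.48 and Tsc22d3 12.72 and 11.88, while Sgk1 was on the other side (12.78 and 13.40) and Per1 was level (12.36 and 12.32). Neither the 20 clock genes nor the 22 immediate early genes had a member past 2-fold (medians 0.05 and -0.29, the latter 0.19 without loess). Bhlhe40 (-0.85) and Hlf (0.71) were the largest of the clock list.

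Cytosolic ribosomal protein genes lay on the higher side as a list. All 59 kept had a ratio above 0, 9 of them at least 2-fold higher (5 with outlier spots in the background fit), with a median of 0.55. Among 11418 other genes within the same range of signal, 51.0% were above 0 and the median was 0.01. Rplp2, of the ribosomal stalk, had 17.48 in KO and 15.59 in WT, Rplp1 17.13 and 15.68, Rpl5 16.64 and 15.36, and Rps23 17.28 and 16.03. The lowest was Rps13 (0.02), whose 2 probes were at -0.74 and 0.77. The median was 0.46 to 1.22 over the alternatives, but 3 genes were below 0 at offset 0 and in both the ratios of Feature Extraction and the deposited table, and 1 without background correction. The median of the same genes on the adipocyte array was 0.07. Processed copies of these genes are many, so a probe may read more than its own gene.

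Interferon-stimulated genes lay below 0 by a smaller amount. Of 20 kept none was past 2-fold, and 19 were below 0 (median -0.41, but -0.05 without loess and -0.08 with outlier spots in the background fit). Over all genes kept 9745 of 20564 were below 0. Isg15, a ubiquitin-like protein, had 9.47 in KO and 10.31 in WT, Ifit1 7.60 and 8.44, the tetherin gene Bst2 12.13 and 12.92, and the transcription factor Irf7 8.09 and 8.77. Isg15, Ifit1 and Bst2, the 3 whose promoters are printed above, were read by 1 probe each. On the adipocyte array the list had a median of -0.68 with 4 lower.

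Other cell types gave few genes past 2-fold. No member of the macrophage (15), vascular endothelial (17), smooth muscle (14), red cell (9) or B cell (11) lists passed it. However, 7 of the 11 B cell genes and 2 of the 9 red cell genes were not above background in WT. That held for 3364 of all 20564 genes kept, and ratios of such genes say little. S100b was the 1 gene lower of 11 nerve genes (12.55 and 13.84), a list with a median of 0.06. S100b was also kept on the adipocyte array (ratio 0.46). Mmrn1, of lymphatic vessels, was the 1 higher of 5 (8.81 and 7.63), though not with outlier spots in the fit (0.20). Cd3g was the 1 lower of 11 T cell genes (6.51 and 7.56), and had -0.08 in that fit. The 13 mast cell and granulocyte genes had 11 above 0 and none past 2-fold (median 0.38, and 0.13 in that fit). Of all 20564 genes kept, 10819 were above 0. The 32 cell cycle genes had none past 2-fold (median -0.30), and neither had the 31 proteasome genes (-0.11, and 0.51 without loess) nor the 28 collagen and matrix genes (-0.13, and 0.37 without loess).

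The upper end of the array held genes of mixed kinds. The unnamed transcript 6330403K07Rik had 11.17 in KO and 8.38 in WT (6.90-fold). Ugt2b34, a glucuronosyltransferase, had 10.77 and 8.50, the fibrillar collagen Col27a1 12.15 and 9.97 on 3 probes, Rgs2, a brake on G protein signalling, 13.91 and 12.03, and the methyltransferase Inmt 9.55 and 7.54. With outlier spots in the fit Inmt had 0.43 and Ugt2b34 0.98, short of 2-fold. Of the 199 higher genes 165 were measured in both channels, and of the 508 lower genes 459. Over all genes kept 15456 of 20564 were.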

How the data were processed

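Members, gene lists and the comparisons were chosen with earlier results of these data known. Per the file headers, the deposited scanner file holds intensity values (mean signal and local background median of both dyes) and a log10 ratio of red over green from Agilent Feature Extraction 9.5.1.1. The authors' deposited value table holds log10 ratios that matched the scanner's on 35756 spots within 0.016 on the log2 scale and is empty for 7623. Outlier spots were left out first. Background was corrected with normexp (offset 50) and dyes with loess (span 0.3, control spots at weight 0) in limma 3.58.1 under R 4.3.3. Spots were averaged per probe. A probe counted as above background when at least 0.5 of its spots were, and a gene is the mean of its probes kept. No source used here gives the genome build of the probes.

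No test or paired analysis was run on 1 array. Genes were counted at 2-fold, and 42 lists were matched by symbol or unique synonym to the file's gene names, 735 of 798 entries being kept. Genes named were taken from the 30 highest and lowest, the 30 lowest outside muscle lists, up to 6 list members past 2-fold or else 2, 5 bounds each way, the probes of Prkg1 and fixed markers. Plin5, Ebf2, Zic1, Lhx8, Prdm16, Pdk4, Srebf1, Fkbp5, Tsc22d3, Sgk1, Per1, Rps13, Bst2, Irf7, Myod1, Pax7, Tnni3, Kcna7 and Clcn1, the heart genes not above background and the 2 neighbours of Prkg1 were picked once their values had been seen, and some genes under the rule are not reported here. Normalisation and counting were tested on simulated data with the signals of this array (42164 probes). Both channels were built from the WT signal with small random noise and no dye bias of single probes. Of 50 probes raised 4-fold, 49 passed 2-fold, and of 50 lowered 4-fold 34 did. Of 50 raised or lowered exactly 2-fold 13 and 8 did. All changed probes went in the right direction. No unchanged probe passed, which does not give the share of false calls on the real array. The alternatives tried were background correction and its offset, loess, Feature Extraction's ratios, the deposited table, filters on brightness, the brightest probe, genes in the RefSeq table and other fold limits.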

Additional observations from a re-analysis of the deposited data

Results flagged for a closer look

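Some genes past 2-fold in the tissue went the opposite way past 2-fold on the adipocyte array; with 1 array each the difference was not tested. Lower in tissue and higher in culture were the muscle genes Acta1 (-2.33 and 1.52), Actc1 (-1.57 and 1.49), Cox6a2 (-2.86 in tissue), Cryab (-1.12 and 1.17) and Tpm2 (-2.02 and 1.73). Higher in tissue and lower in culture were Cfd (1.78 and -5.67), Cidea (1.01 and -3.38), Klf15 (1.02 and -1.05), Lpin1 (1.34 and -1.88), Rgs2 (1.89 and -1.59), Rplp2 (1.89 and -1.07) and Xist (4.41 and -3.36). In culture 25 of 27 mature adipocyte genes were at least 2-fold lower (median -3.08), as were 14 of 30 brown fat genes and 3.81% of all genes. The drop in culture was therefore not particular to Cfd and Cidea. The dyes were reversed between the arrays, so a dye bias of a probe enters its 2 ratios with opposite signs.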

How the results depend on the processing

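No paired analysis was possible because each genotype had 1 RNA sample on 1 array. The main counts were 199 higher, 508 lower and 74 lower muscle genes. With outlier spots kept in the background fit they were 47, 76 and 40. Counts of higher and lower genes were 699 and 1210 with normexp offset 0, 2357 and 1374 with Feature Extraction's ratios, and 2352 and 1372 with the deposited table. Without loess 943 genes were higher. Counting only genes that RefSeq's list holds, with the processing unchanged, gave 127 higher. At 1.5-fold 873 were higher and 1502 lower, and at 3-fold 43 and 129. Without the 7 skeletal muscle lists and the sex lists 195 were higher and 430 lower. The heart list, and muscle genes that no list held, stayed in these counts. The counts at other fold limits, over RefSeq's genes and without lists differ by what was counted, and for the others the cause was not tested. Of 430 list medians under alternatives 117 moved by more than the median SD between probes, and 40, from 23 lists, lay on the other side of 0, 18 of them without loess. Of 1833 values of the 186 genes followed (ranked genes, list members past 2-fold and fixed markers), 759 moved by more than that SD. None of these genes that was past 2-fold changed sign. Other genes past 2-fold were not followed. Dim probes limit the ratios: 3364 genes were not above background in WT and 311 not in KO.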
